A study of Mus musculus with 8 samples.

Results

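The 36 genes described here are expressed in macrophages and other leukocytes and were measured by RNA-seq in primary mouse embryonic fibroblast (MEF) cultures. They were selected on having a row in the deposited count table, by Ensembl identifiers that map to a list of 36 leukocyte symbols, and they are 36 of 19493 endogenous genes in the table. The list was chosen by leukocyte function, with the measured genotype difference in these libraries already known, so the counts, levels and differences of these member genes are given as a description. There were 8 libraries, 4 from wild-type (WT) and 4 from Dp1Tyb cultures. The Dp1Tyb mice carry Dp(16Lipi-Zbtb21)1TybEmcf, a duplication of the part of mouse chromosome 16 that corresponds to human chromosome 21, and all labels give the strain background as C57BL/6J.129P2 and the stage as embryonic day 14.5. The study's methods describe repeated backcrossing of all mice to C57BL/6JNimr. By the study's methods, littermate embryos were decapitated and eviscerated before trypsin treatment and passage, and synthetic spike-in RNA was added to a fixed number of cells. The labels do not say whether the replicates were separate embryos, so p-values measure only the spread between these libraries, and all labels carry the same lane code.

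Macrophages are phagocytes that arise in the embryo from yolk sac and liver progenitors and settle in nearly every tissue. Their development and survival depend on the transcription factor PU.1, encoded by Spi1, and on the receptor CSF1R, whose ligand CSF1 is made by mesenchymal cells including fibroblasts. Which cells gave the counts of the member genes was not measured. In bulk RNA, fewer cells of a type and less RNA per cell cannot be told apart.

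The promoters below are shown because Spi1 is a member and PU.1-type ETS factors bind GGAA cores. RefSeq promoter windows on GRCm38.p6, from 250 bases before to 50 after a start site, were matched for 28 of the 36 members. The motif GAGGAAGT, searched on both strands, was in at least 1 window of 5 of the 28 genes (17.9%), against 3.69% of all 27018 genes with RefSeq windows. The shorter GAGGAA, which lies inside GAGGAAGT, was in 18 of 28 (64.3%) against 31.3%, and the GGAA core in 28 of 28 against 96.5%. The 5 windows with the longer motif are printed with a Ptprc window that holds only the shorter one. The other Ptprc window, chr1:138175077-138175376, holds neither and is not printed. Capitals mark either motif on either strand.
Ptprc, chr1:138175256-138175555, minus strand: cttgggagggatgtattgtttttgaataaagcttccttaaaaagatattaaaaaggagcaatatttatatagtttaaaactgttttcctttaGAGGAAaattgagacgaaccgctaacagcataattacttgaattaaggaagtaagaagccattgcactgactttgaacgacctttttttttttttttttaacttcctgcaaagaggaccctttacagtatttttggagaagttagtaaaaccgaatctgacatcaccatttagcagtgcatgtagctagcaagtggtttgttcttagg
Cd53, chr3:106790100-106790399, minus strand: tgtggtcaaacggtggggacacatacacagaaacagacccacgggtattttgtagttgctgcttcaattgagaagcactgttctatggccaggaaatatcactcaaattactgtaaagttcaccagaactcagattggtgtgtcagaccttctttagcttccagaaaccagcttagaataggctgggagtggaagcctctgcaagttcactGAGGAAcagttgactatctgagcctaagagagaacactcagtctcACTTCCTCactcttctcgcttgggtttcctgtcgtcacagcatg
C1qc, chr4:136892865-136893164, minus strand: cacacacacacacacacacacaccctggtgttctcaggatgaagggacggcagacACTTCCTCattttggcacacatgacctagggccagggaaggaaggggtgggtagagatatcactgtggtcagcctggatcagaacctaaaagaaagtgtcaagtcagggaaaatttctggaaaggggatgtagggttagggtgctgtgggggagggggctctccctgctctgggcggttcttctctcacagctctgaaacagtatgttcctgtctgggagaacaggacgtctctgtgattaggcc
Ctss, chr3:95526536-95526835, plus strand: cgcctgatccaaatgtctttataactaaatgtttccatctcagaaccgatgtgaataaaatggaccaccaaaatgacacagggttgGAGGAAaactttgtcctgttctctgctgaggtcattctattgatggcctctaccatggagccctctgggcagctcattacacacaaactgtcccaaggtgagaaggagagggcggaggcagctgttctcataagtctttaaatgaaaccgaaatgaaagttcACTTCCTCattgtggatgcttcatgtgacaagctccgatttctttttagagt
Pld4, chr12:112760405-112760704, plus strand: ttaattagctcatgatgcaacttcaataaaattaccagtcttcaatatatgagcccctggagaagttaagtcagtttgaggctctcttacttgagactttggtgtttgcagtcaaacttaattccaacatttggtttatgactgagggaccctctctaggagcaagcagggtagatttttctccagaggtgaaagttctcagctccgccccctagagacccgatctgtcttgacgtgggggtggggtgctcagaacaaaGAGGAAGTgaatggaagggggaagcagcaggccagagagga
Samsn1, chr16:75909217-75909516, minus strand: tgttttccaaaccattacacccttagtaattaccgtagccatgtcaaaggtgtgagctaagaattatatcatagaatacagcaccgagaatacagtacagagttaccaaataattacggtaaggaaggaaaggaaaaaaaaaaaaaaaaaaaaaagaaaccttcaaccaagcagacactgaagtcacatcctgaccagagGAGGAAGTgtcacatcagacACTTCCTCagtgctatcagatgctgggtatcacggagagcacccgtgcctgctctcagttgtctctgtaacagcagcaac
The Samsn1 window holds GAGGAAGT at 2 positions, 50 and 30 bases before the start site. A match describes the letters of a window and says nothing of binding in these cultures. The members were chosen by leukocyte function, and whether the motifs bear on the genotype difference was not tested.

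Library depth was 17698900 to 26471758 counts, spike-ins included. The fibroblast label was checked against 12 fibroblast genes, which all had rows and summed to 23783 to 34163 CPM in WT and 28160 to 33225 in Dp1Tyb. CPM here is the usual depth-scaled count, taken over the endogenous counts of a library. Over the 111 other tested genes of the duplicated region, the median log2 fold change (Dp1Tyb over WT) was 0.55 with relative scaling, near the 0.58 that 3 copies in place of 2 would give. Relative scaling sets libraries equal over endogenous RNA, while spike-in scaling sets them equal over the added RNA. The study compared normalisation to the spike-ins with relative normalisation.

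The summed counts of the 36 members were a small part of every library and were lower on average in Dp1Tyb. The sums were 923, 638, 753 and 601 CPM in the WT libraries, listed by replicate number, and 638, 451, 455 and 354 in the Dp1Tyb libraries. WT averaged 729 ± 145 (SD, n = 4) and Dp1Tyb 475 ± 119 (SD, n = 4), a ratio of geometric means of 0.646, or -0.63 on the log2 scale. The groups overlapped, since Dp1Tyb replicate 1 lay above WT replicate 4 and beside WT replicate 2, while the other 3 Dp1Tyb libraries lay below every WT library. Counting error was small beside this spread, with 95% Wilson intervals of 910 to 937 in WT replicate 1 and 346 to 363 in Dp1Tyb replicate 4. These intervals, and those below, cover counting error only.

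**Figure D1:**
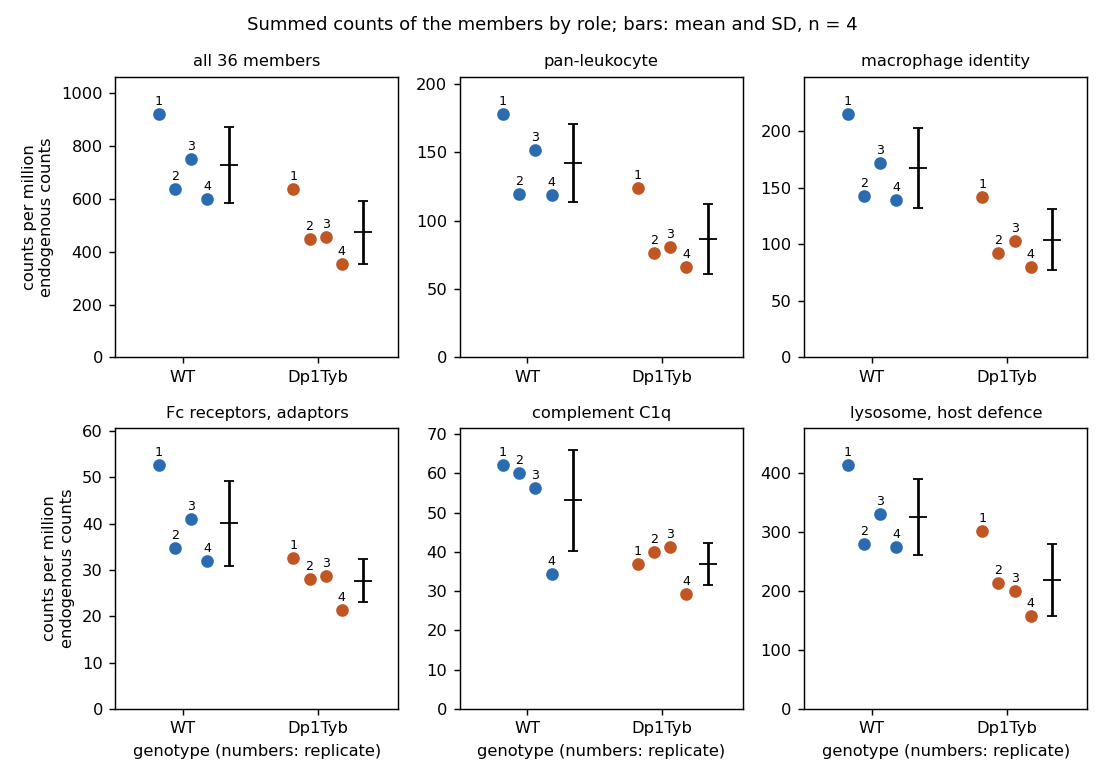
Summed counts of the members in CPM of endogenous counts (y axis, from 0) in each library by genotype (x axis), for all 36 members and for 5 roles. Points are libraries with their replicate number and bars give mean and SD (n = 4); WT replicate 1 is the highest library in every panel.

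Every role had the lower mean in Dp1Tyb. The ratio of geometric means was 0.602 for the 8 pan-leukocyte genes, 0.618 for the 11 macrophage identity genes, 0.695 for the 5 Fc receptor and adaptor genes, 0.705 for the 3 C1q genes and 0.663 for the 8 lysosome and host defence genes. The groups overlapped in each role. The overlap came from Dp1Tyb replicate 1 in the pan-leukocyte, macrophage identity, Fc receptor and lysosome sums, and from WT replicate 4 in the C1q sum, at 34.3 against 36.9, 39.9, 41.2 and 29.2 in Dp1Tyb.

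Gene by gene, 35 members passed the filter on low counts and were tested with all 16470 genes by edgeR's quasi-likelihood test. Aif1, which encodes the macrophage protein IBA1, did not pass, at 0.194 to 0.492 CPM (relative scaling) in WT and 0.288 to 0.519 in Dp1Tyb. No member passed a Benjamini-Hochberg adjusted p of 0.05 under either scaling, where 0.0182% of all tested genes passed with relative scaling and 0.0121% with spike-in scaling. With relative scaling, 21 of 35 members were lower in Dp1Tyb at an unadjusted edgeR p under 0.05 (2.53% of all tested genes) and 0 were higher (1.74%). The 21 became 9 without Dp1Tyb replicate 4 (2.94%) and 25 without Dp1Tyb replicate 1 (3.30%). Over the members the median SE of the log2 fold change was 0.24 with relative and 0.37 with spike-in scaling, so the counts under the 2 scalings differ in precision. With spike-in scaling 1 of 35, Ptprc, was lower at that unadjusted p (0.316%) and 0 were higher (0.85%). Leaving out a library moved that 1 to between 0 and 9, the latter without Dp1Tyb replicate 1 (0.939%). DESeq2 called 1 member at an adjusted p under 0.05 with relative scaling, also Ptprc (0.328% of all tested genes, 54 of 16470, with 0.0546% lower in Dp1Tyb), and 0 with spike-in scaling (0.0121%, 2 of 16470). At an unadjusted DESeq2 p under 0.05, 22 and 1 members were lower (2.29% and 0.225% of all tested genes) and 0 were higher (1.99% and 0.656%).

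The estimates themselves lay nearly all on the same side. Of the 35, 34 had a log2 fold change below 0 under either scaling (48.8% of all tested genes with relative and 29.6% with spike-in scaling), and the exception was Ly86. The median over members was -0.54 with relative scaling, against 0.01 over all tested genes, and -0.45 with spike-in scaling, against 0.11. The spike-in median was -0.24 without WT replicate 1, against 0.22 over all, and -0.27 without Dp1Tyb replicate 2, against 0.28. With relative scaling all 4 Dp1Tyb libraries lay below all 4 WT libraries for 6 members, Ptprc, Hcls1, Spi1, Itgam, Tyrobp and Ctss (1.52% of all tested genes), and at least 3 did for 18 members (6.95%). The 6 became 15 without WT replicate 4 (3.0%) and 16 without Dp1Tyb replicate 1 (3.70%). With spike-in scaling the groups did not overlap for 1 member, Ptprc (0.14%), which became 9 without Dp1Tyb replicate 1 (0.644%) and 4 without WT replicate 3 (0.899%). Estimates below -0.5 were found for 25 of 35 members with relative scaling (5.82% of all tested genes) and 10 of 35 with spike-in scaling (3.41%).

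**Figure D2:**
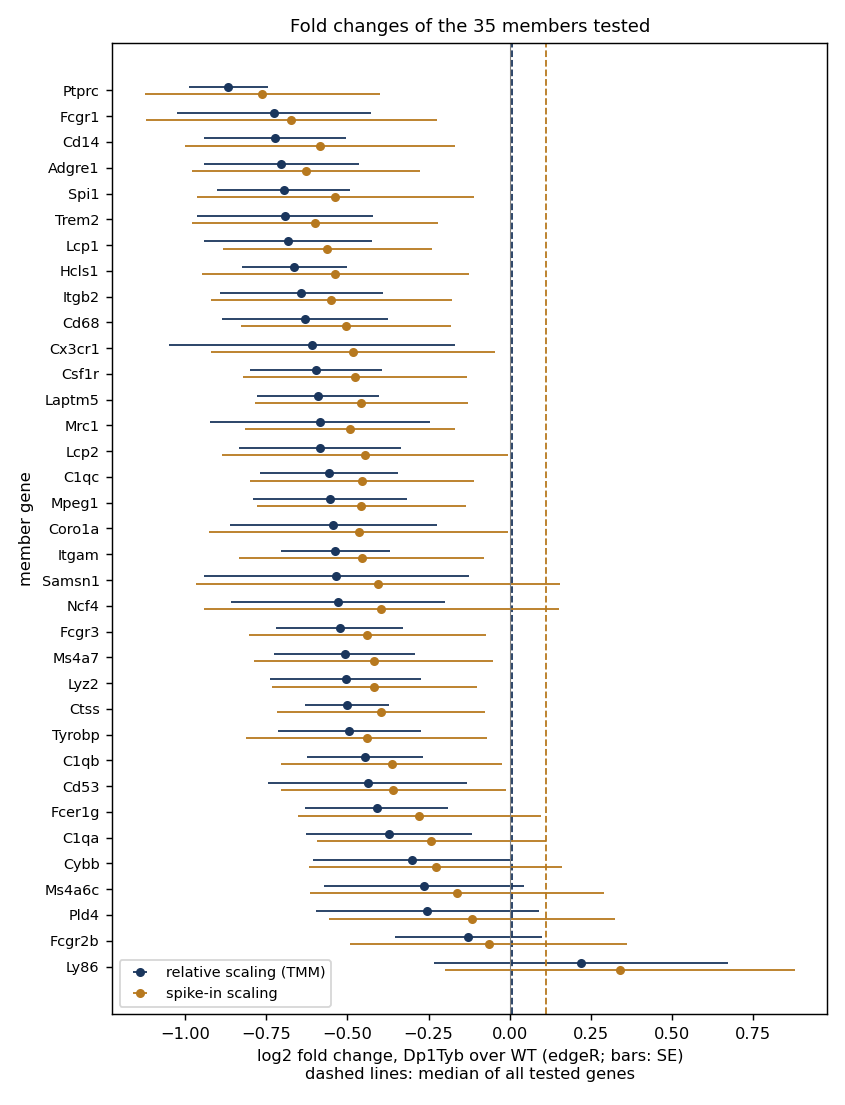
Log2 fold change of Dp1Tyb over WT (x axis) for each of the 35 tested members (y axis) with relative and spike-in scaling. Points are edgeR estimates and bars are SE; dashed lines mark the median of all tested genes, and all members but Ly86 lie below 0.

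Values of single genes from here on are CPM with relative scaling, listed by replicate number within each genotype. Ptprc (ENSMUSG00000026395, chr1:138062861-138175708, minus strand, GRCm38) encodes CD45, the tyrosine phosphatase on the surface of nearly all nucleated blood cells. Its CPM were 13.7, 15.0, 15.1 and 13.9 in WT and 8.16, 8.25, 8.07 and 7.08 in Dp1Tyb. The groups were far apart and each was tight. The log2 fold change was -0.87 (SE 0.12, edgeR adjusted p 0.0903) with relative scaling and -0.76 (SE 0.36, edgeR adjusted p 1.00) with spike-in scaling. By DESeq2 with its own size factors it was -0.86, with an adjusted p of 5.89e-07, and the edgeR adjusted p ranged from 0.0539 to 0.599 over the other relative settings tried. The same-strand gene A130071D04Rik overlaps Ptprc, and reads in the overlap may have been left out of the count.

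The other pan-leukocyte genes act in the cytoskeleton, signalling and adhesion of blood cells. Hcls1, which encodes an actin regulator of blood cells, had 5.50, 6.32, 5.97 and 4.76 CPM in WT and 3.75, 3.58, 3.49 and 3.39 in Dp1Tyb. Its groups did not overlap, and its log2 fold change was -0.66 (SE 0.16) with relative and -0.54 (SE 0.41) with spike-in scaling. Lcp1, encoding the actin bundler L-plastin, had 66.3, 49.4, 57.7 and 41.5 CPM in WT and 52.8, 29.2, 30.4 and 21.2 in Dp1Tyb. Here Dp1Tyb replicate 1 lay within the WT range. Itgb2, the shared beta chain of the leukocyte integrins, had 14.4, 8.99, 10.4 and 9.71 CPM in WT and 10.5, 6.12, 6.15 and 4.95 in Dp1Tyb, again overlapping only through Dp1Tyb replicate 1. Itgb2 is not among the duplicated genes of this mouse. The relative log2 fold changes of the rest were -0.59 for Laptm5, -0.58 for the adaptor Lcp2, -0.54 for the actin regulator Coro1a and -0.44 for the tetraspanin Cd53. That of Coro1a was -0.35 without WT replicate 2, and that of Cd53 was -0.22 without WT replicate 1 and -0.77 without Dp1Tyb replicate 1. Cd53 was among the more uneven, at 23.0, 10.8, 16.8 and 14.51 CPM in WT and 19.3, 11.8, 8.66 and 8.11 in Dp1Tyb.

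Among the macrophage identity genes, Spi1 encodes PU.1 itself. It had 4.16, 3.90, 5.40 and 4.13 CPM in WT and 3.40, 2.13, 2.66 and 2.59 in Dp1Tyb, with no overlap and a log2 fold change of -0.70 (SE 0.21) with relative and -0.54 (SE 0.43) with spike-in scaling, the latter -0.30 without Dp1Tyb replicate 2. Itgam, which encodes the integrin alpha chain CD11b, had 10.7, 9.54, 10.5 and 8.25 CPM in WT and 6.81, 7.62, 7.33 and 5.12 in Dp1Tyb, also without overlap. Csf1r, the receptor for CSF1, had 14.9, 25.4, 21.2 and 15.7 CPM in WT and 11.3, 14.48, 14.96 and 10.4 in Dp1Tyb. Dp1Tyb replicate 3 lay just above WT replicate 1, and its log2 fold change was -0.60 (SE 0.20) with relative scaling. Adgre1, which encodes the macrophage marker F4/80, had 22.2, 18.03, 16.6 and 11.8 CPM in WT and 13.1, 11.3, 11.2 and 6.56 in Dp1Tyb, where WT replicate 4 lay below Dp1Tyb replicate 1. Cd14, the lipopolysaccharide co-receptor, had 3.49, 6.15, 5.02 and 6.36 CPM in WT and 3.56, 2.77, 3.15 and 3.22 in Dp1Tyb. Its only overlap was WT replicate 1, its lowest WT library, with Dp1Tyb replicate 1.

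Mrc1 and Cx3cr1 were the identity genes with the largest SD of log2 CPM over the 8 libraries, 0.614 and 0.636. Mrc1, the mannose receptor, had 59.7, 26.6, 35.3 and 29.5 CPM in WT and 42.6, 19.2, 22.8 and 15.8 in Dp1Tyb, high in both libraries numbered 1. Cx3cr1, the fractalkine receptor, had 1.16, 6.66, 2.84 and 4.32 CPM in WT and 1.78, 2.88, 2.51 and 2.70 in Dp1Tyb, low in both. Their relative log2 fold changes were -0.58 (SE 0.34) and -0.61 (SE 0.44). That of Mrc1 was -0.27 without WT replicate 1 and -0.97 without Dp1Tyb replicate 1, and that of Cx3cr1 was -0.16 without WT replicate 2. Several other genes overlap Cx3cr1 in the annotation, Hmgxb3 on the opposite strand overlaps Csf1r, and Bola2 likewise overlaps Coro1a. Whether counting used the strand is not given in the sources used here. Of the remaining identity genes, Trem2 had a relative log2 fold change of -0.69, the lysosomal glycoprotein gene Cd68 -0.63, Ms4a7 -0.51 and Ms4a6c -0.26, the last from -0.45 without Dp1Tyb replicate 1 to -0.12 without Dp1Tyb replicate 4.

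**Figure D3:**
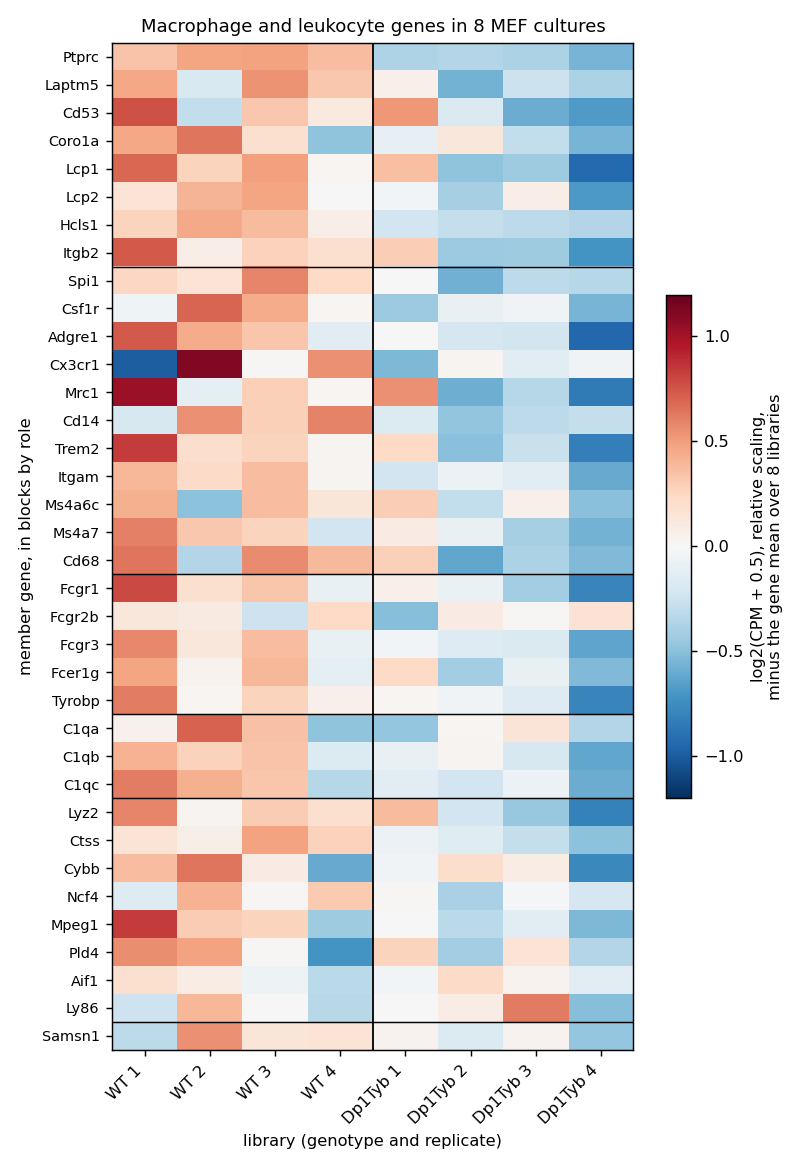
Log2(CPM + 0.5) with relative scaling minus the gene's mean over 8 libraries (colour) for the 36 members (rows, in blocks by role) in each library (columns). WT replicate 1 is the highest library for 19 of the 35 tested members and Dp1Tyb replicate 4 the lowest for 26.

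Fc receptors bind antibody and signal through adaptors that carry activation motifs. Tyrobp, encoding the adaptor DAP12, had 13.99, 9.12, 10.8 and 9.32 CPM in WT and 9.09, 8.65, 7.97 and 4.95 in Dp1Tyb, so that the groups were separate by a narrow margin. Fcgr1, the high-affinity IgG receptor, had a relative log2 fold change of -0.73 (SE 0.30), Fcgr3 -0.52 (SE 0.19) and their shared signalling chain Fcer1g -0.41 (SE 0.22). Fcgr2b, the inhibitory IgG receptor, had 3.80, 3.73, 2.79 and 4.13 CPM in WT and 2.24, 3.69, 3.45 and 3.91 in Dp1Tyb. Its groups overlapped throughout, and its log2 fold change was -0.13 with a 95% interval from -0.63 to 0.38, and it ran from -0.22 without WT replicate 3 to 0.027 without Dp1Tyb replicate 1.

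C1qa, C1qb and C1qc encode the chains of C1q, which starts the classical complement pathway and which tissue macrophages make. C1qa had 12.9, 20.7, 16.0 and 8.79 CPM in WT and 8.89, 12.7, 13.9 and 9.67 in Dp1Tyb. C1qb had 22.3, 20.2, 21.1 and 14.7 CPM in WT and 15.5, 16.9, 14.4 and 10.6 in Dp1Tyb. C1qc had 22.1, 19.4, 18.1 and 11.2 CPM in WT and 13.03, 12.1, 13.6 and 9.26 in Dp1Tyb. In all 3, WT replicate 4 was the lowest WT library; it lay inside the Dp1Tyb range for C1qb and C1qc and just below it for C1qa. Their relative log2 fold changes were -0.37 (SE 0.26), -0.45 (SE 0.18) and -0.56 (SE 0.21), and that of C1qa was -0.14 without WT replicate 2.

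Lyz2, the macrophage lysozyme gene (chr10:117277331-117282321, minus strand), gave the most counts of any member, with 28.4% of all member counts. It had 243, 165, 200 and 185 CPM in WT and 211, 138, 118 and 92.1 in Dp1Tyb, and overlapped only through Dp1Tyb replicate 1. Its relative log2 fold change was -0.51, and -0.77 without that library. Ctss, encoding the lysosomal protease cathepsin S, had 53.3, 49.6, 66.3 and 57.6 CPM in WT and 45.01, 42.6, 38.7 and 33.6 in Dp1Tyb. Its groups did not overlap, and its log2 fold change was -0.50 (SE 0.13) with relative and -0.40 (SE 0.32) with spike-in scaling, the latter -0.25 without Dp1Tyb replicate 2. Mpeg1, a pore-forming protein of phagocytes, had a relative log2 fold change of -0.55 (SE 0.24), and -0.32 without WT replicate 1. The NADPH oxidase genes Cybb and Ncf4 were at -0.30 (SE 0.31) and -0.53 (SE 0.33), and Pld4, an endolysosomal nuclease, at -0.25 (SE 0.34). Leaving out single libraries moved Cybb from -0.50 (WT replicate 4) to -0.087 (WT replicate 2) and Pld4 from -0.48 (WT replicate 4) to -0.064 (WT replicate 1). Ly86, which encodes the RP105 partner MD-1, was the only tested member with a positive estimate, 0.22 (SE 0.45), at 0.388 to 0.976 CPM in WT and 0.288 to 1.23 in Dp1Tyb, and it ran from -0.18 without Dp1Tyb replicate 3 to 0.56 without WT replicate 2.

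Levels were compared between genes per length of exon (RPKM, from the CPM and GENCODE M21 exon lengths). The length covers all annotated exons of a gene together, 18313 bases for Ptprc. RPKM is therefore too low where the transcripts present are shorter than that, and ranks between genes depend on the annotation. In WT Lyz2 stood highest at 151 ± 24.99 RPKM (SD, n = 4), followed by Ctss at 41.7 ± 5.28 and Cd68 at 33.5 ± 9.25. Ctss and Cd68 differed by less than the SD of Cd68. C1qb at 17.96 ± 3.09, Tyrobp at 16.2 ± 3.37 and C1qa at 14.02 ± 4.82 came next, and each differed from the next by less than either SD. Csf1r was at 3.34 ± 0.856 RPKM, Spi1 at 1.63 ± 0.252 and Ptprc at 0.787 ± 0.0389. Samsn1 was lowest at 0.128 ± 0.0549. In Dp1Tyb Lyz2, Ctss and Cd68 again led, at 106 ± 38.7, 29.5 ± 3.67 and 21.6 ± 6.93 RPKM.

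The make-up of the member counts differed between libraries of the same genotype. As a share of the summed member counts, no tested member had all Dp1Tyb libraries below or all above the WT libraries, and 21 of 35 had the higher mean log2 share in Dp1Tyb. A share of the members' own sum leaves out any difference common to the members. The same counts were not made over all tested genes, so they are a description and do not show an unchanged make-up. Mrc1 made up 7.02% (95% Wilson interval 6.66 to 7.39) of member counts in WT replicate 1 and 6.58% (6.22 to 6.97) in Dp1Tyb replicate 1, against 4.06 to 4.92% in the other 6 libraries. Csf1r went the other way, at 1.75% (1.57 to 1.95) and 1.74% (1.56 to 1.95) in those libraries and 2.59 to 3.97% in the rest. Cx3cr1 was also low there, at 0.137% (0.0933 to 0.200) and 0.275% (0.206 to 0.366), against 0.384 to 1.04%. These intervals do not meet those of the other libraries for Mrc1 and Csf1r. Cd53, Itgb2 and Trem2 had, like Mrc1, their highest share of each genotype in replicate 1, while Ptprc, Lcp2, Hcls1, Cd14, Itgam and Ctss had, like Csf1r and Cx3cr1, their lowest there. The labels do not say that a replicate number links libraries across genotypes.

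**Figure D4:**
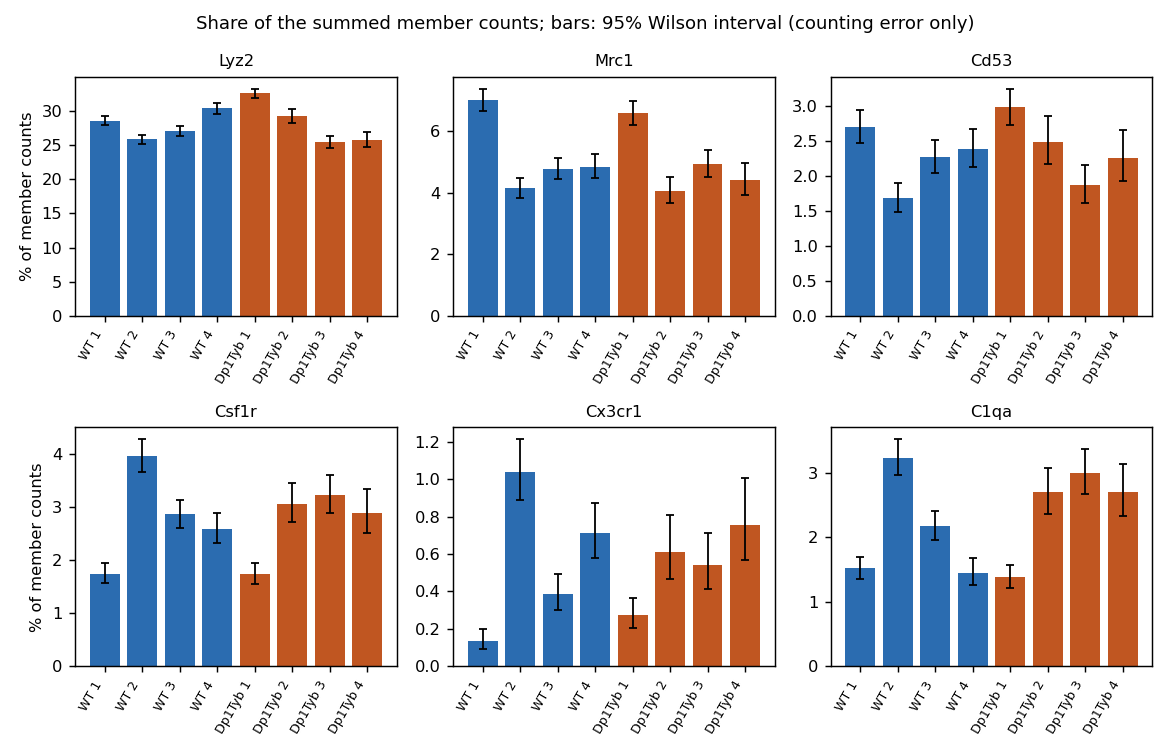
Share of the summed member counts (y axis, percent, from 0) taken by 6 members in each library (x axis; WT blue, Dp1Tyb orange). Bars carry 95% Wilson intervals; Mrc1 is high and Csf1r and Cx3cr1 are low in both libraries numbered 1.

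Each member's profile across libraries was set beside the median profile of the tested members. That median, of centred log2 values, was 0.46, 0.28, 0.33 and 0.03 in WT and -0.00, -0.23, -0.19 and -0.56 in Dp1Tyb, so it varied within each genotype as well as between them. The root mean square difference of a member from that profile had a median of 0.219, from 0.087 for Fcgr3 to 0.689 for Cx3cr1. A gene with the same level in every library would lie 0.317 from it, and 10 of the 35 members lay farther than that, Cx3cr1, Ly86, Fcgr2b, C1qa, Mrc1, Cd14, Pld4, Cybb, Cd68 and Cd53. The profile was made from the members, so their closeness to it is no evidence that they vary together. By the same measure the genes outside the list nearest to the profile, of 14560 whose counts averaged 20 or more, included Dbndd1 (0.093), Sirpa (0.094), Nova1 (0.103), Gm38146 (0.107), Dock2 (0.126), Cd48 (0.127), Ptpn6 (0.131), Ccnd1 (0.136) and Naip6 (0.143). Sirpa, a signal-regulatory receptor of myeloid cells that other cells also carry, had 142, 110, 135 and 108 CPM in WT and 96.4, 79.3, 90.9 and 73.3 in Dp1Tyb. Dock2, Cd48 and Ptpn6 were also on a list of further pan-leukocyte genes.

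That list, of 39 genes, and a list of 41 further macrophage genes were described in the same way. Of the pan-leukocyte genes 36 were tested, 31 had a relative log2 fold change below 0, the median was -0.49 and 0 passed the adjusted threshold, with 16 lower and 0 higher at an unadjusted edgeR p under 0.05. Of the macrophage genes 31 were tested, 26 were below 0, the median was -0.39 and 0 passed, with 7 lower and 0 higher. Over all tested genes 48.8% were below 0, the median was 0.01, and 2.53% were lower and 1.74% higher at that p. With spike-in scaling the medians were -0.37 and -0.27, against 0.11 over all, with 3 and 0 lower at that level (0.316% of all). DESeq2 with relative scaling called 2 pan-leukocyte genes, Vav1 and Nckap1l, both lower in Dp1Tyb, and 0 macrophage genes (0.328% of all), with 16 and 8 lower at an unadjusted p under 0.05 (2.29% of all). With spike-in scaling DESeq2 called 0 of either list (0.0121% of all), with 2 and 0 lower at that p (0.225% of all). Vav1, a signalling protein of blood cells, had 6.21, 5.26, 6.16 and 4.42 CPM in WT and 3.05, 2.37, 3.002 and 2.53 in Dp1Tyb, which did not overlap. The most counted genes of these lists are also strongly expressed by cells that are not leukocytes. Cd44 ranged from 747 to 2465 CPM in WT and 1416 to 2070 in Dp1Tyb, and Gpnmb from 471 to 1076 and from 493 to 1147.

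Ligands of CSF1R and related cytokines were described beside the receptor. Csf1, the growth factor for macrophages, had 290, 335, 351 and 404 CPM in WT and 580, 283, 341 and 381 in Dp1Tyb, with the highest value in Dp1Tyb replicate 1. Over the 6 tested ligand and cytokine genes the median relative log2 fold change was 0.12, 1 was below 0 and 0 passed the adjusted threshold, with 2 higher and 0 lower at an unadjusted p under 0.05 by edgeR (1.74% of all tested genes higher) and by DESeq2 (1.99%), which also called 0. With spike-in scaling the median was 0.30, and 0 were higher or lower at that p by either tool. Cxcl12 ranged from 221 to 446 CPM in WT and 245 to 320 in Dp1Tyb.

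Of 75 genes on 8 lists of other blood cells, 30 had a row in the table and 15 were tested. Rows were found for 5 of 12 T cell genes, 3 of 8 B cell, 0 of 6 natural killer cell, 3 of 10 neutrophil, 3 of 9 mast cell, 5 of 8 megakaryocyte, 2 of 11 erythroid and 9 of 11 dendritic cell and MHC class II genes. Among the defining genes, no row was found for Cd3e, Cd3d, Cd3g or Cd8a of T cells, S100a8, S100a9, Ly6g, Elane or Mpo of neutrophils, Cpa3 of mast cells or the globin genes of red cells. The smallest row sum in the table was 15, and genes without a row were not analysed here. The 3 neutrophil genes with a row summed to 1.31 to 2.03 CPM in WT and 0.662 to 1.14 in Dp1Tyb, mostly Csf3r, which macrophages also express, and these sums did not overlap. Csf3r itself overlapped between groups. It was the only one tested, with a relative log2 fold change of -0.82 (SE 0.36, unadjusted edgeR p 0.0478, adjusted p 1.00) and -0.64 (SE 0.53, unadjusted edgeR p 0.224) with spike-in scaling, and DESeq2 gave 0 neutrophil genes lower at an unadjusted p under 0.05 with either scaling. T cell genes with rows, Cd4 and Cd5 among them, summed to 356 to 578 and 213 to 558 CPM, nearly all from Thy1, which fibroblasts also express. Cd4 was at 0.170 to 0.626 CPM in WT and 0.115 to 0.541 in Dp1Tyb, and Cd5 at 0.616 to 1.12 and 0.503 to 1.18. The B cell genes summed to 0.434 to 0.970 CPM in WT and 0.441 to 1.08 in Dp1Tyb, and those of dendritic cells and MHC class II to 4.40 to 7.04 and 4.58 to 6.44. On the lists of further cell types, the median relative log2 fold change was 0.13 for fibroblast, -0.17 for endothelial, 0.08 for epithelial, 0.34 for osteoclast and 0.76 for skeletal muscle genes, over 12, 7, 4, 5 and 5 tested genes. With spike-in scaling these medians were 0.24, -0.05, 0.21, 0.45 and 0.80. None of these genes passed the adjusted threshold or was lower at an unadjusted edgeR p under 0.05. At that p, 2 osteoclast genes, Ctsk and Mmp9, were higher with relative scaling (1.74% of all tested genes higher), and 1 osteoclast, 1 epithelial and 3 skeletal muscle genes with spike-in scaling (0.85%). DESeq2 gave 2 osteoclast, 1 epithelial and 1 skeletal muscle gene higher with relative scaling (1.99%) and 1 osteoclast gene with spike-in scaling (0.656%). For T cell, megakaryocyte, mast cell and dendritic cell genes the relative median was -0.05, -0.13, -0.40 and 0.09, over 4, 5, 2 and 2. The 1 tested erythroid gene, Alas2, was at -0.29. With spike-in scaling these values were 0.07, 0.004, -0.25, 0.22 and -0.14. With relative scaling 1 megakaryocyte gene was lower at an unadjusted edgeR p under 0.05 (2.53% of all tested genes), and 0 by DESeq2 (2.29%). The groups did not overlap for 1 megakaryocyte gene with spike-in scaling (0.14%). Skeletal muscle genes summed to 13.2 to 41.3 CPM in WT and 7.02 to 55.9 in Dp1Tyb. The part of these cell types in the members' difference was not tested.

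Samsn1, an adaptor of blood cells (ENSMUSG00000022876, chr16:75858793-76022281, minus strand), is the only member inside the duplication, at 3 copies in Dp1Tyb against 2 in WT, a ratio of 1.5. Its raw counts were 7, 23, 13 and 13 in WT and 14, 7, 11 and 4 in Dp1Tyb. The groups overlapped, and the log2 fold change was -0.53 (SE 0.41, 95% interval -1.45 to 0.38) with relative and -0.41 (SE 0.56) with spike-in scaling. Without WT replicate 2 these were -0.23 and -0.17. Both estimates were below 0, where the medians of the other tested genes of the region were 0.55 with relative and 0.65 with spike-in scaling. The 95% interval with spike-in scaling, -1.50 to 0.69, includes the region's median for that scaling. That with relative scaling, -1.45 to 0.38, does not include the region's median of 0.55. Per 1000 counts of the other 35 members in the same library, Samsn1 gave 0.368, 1.53, 0.833 and 1.04 in WT and 0.837, 0.857, 1.17 and 0.644 in Dp1Tyb. The means were 0.942 ± 0.480 and 0.877 ± 0.218 (SD, n = 4), and the ratio of geometric means was 1.03, or 0.04 on the log2 scale. Without WT replicate 1 that log2 ratio was -0.36 and without WT replicate 2 it was 0.33. Set against the 8 pan-leukocyte members alone, the ratio was 1.10. With 56 Samsn1 counts in all WT libraries and 36 in all Dp1Tyb libraries, the SD of the log2 values between libraries was 0.87 in WT and 0.35 in Dp1Tyb. Whether the ratio differed from an equal one or from the copy ratio was not tested.

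**Figure D5:**
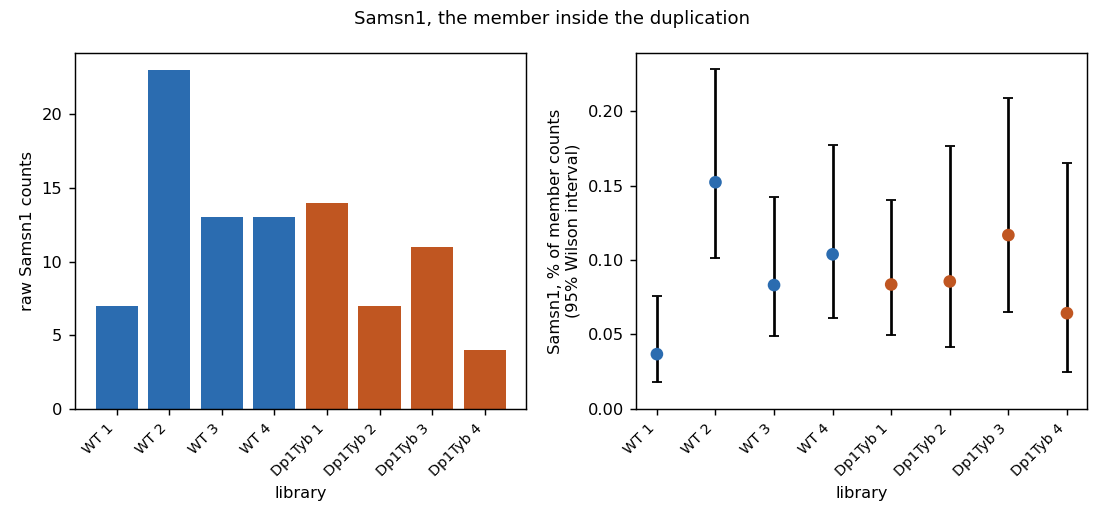
Left, raw Samsn1 counts per library (y axis, from 0; WT blue, Dp1Tyb orange). Right, Samsn1 as a percentage of all member counts with 95% Wilson intervals; every Dp1Tyb interval overlaps every WT interval.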

How the data were processed

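Libraries of polyadenylated RNA were made with a stranded kit from 4 WT and 4 Dp1Tyb MEF cultures. The deposited raw counts per gene were made by the authors from paired-end reads; the submitters' processing notes name Trim Galore, TopHat2 2.0.12, HTSeq, DESeq2 1.6.3 and GRCm38, with no role or order. The strand option and annotation release are not given in the sources used here. The deposited normalised table and the authors' own comparison (fold changes and p-values) were not used.

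Counts of 19493 endogenous genes and 63 spike-ins were analysed, and 19318 identifiers matched GENCODE M21. Genes passing edgeR's filterByExpr (16470) were fitted with edgeR 4.0.16 (glmQLFit, glmQLFTest, R 4.3.3) on genotype. Factors were median-of-ratios factors from the spike-ins (spike-in scaling) or TMM factors over endogenous genes (relative scaling). The study's methods also normalised to spike-ins, without naming the formula. P-values were adjusted by Benjamini-Hochberg over all tested genes. The biological coefficient of variation was 0.351 with spike-in and 0.232 with relative scaling. CPM of single genes use TMM-scaled library sizes, summed CPM use plain endogenous counts, and profiles use log2(CPM + 0.5). Total counts per library limit precision to the Wilson intervals given. No pair of libraries of the same genotype was a duplicate by a chi-square test, and pairs across genotypes were not checked. Scripts were tested on simulated data. Alternatives were DESeq2 1.42.0, other filters, scalings and denominators, a replicate block and leaving out libraries.

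Members and lists were chosen with earlier results of these data known. All 36 members could be named, together with the most counted or called genes of each other list and the 10 genes nearest to the members' median profile; Vav1, Nckap1l, Csf3r, Thy1, Cd4, Cd5, Ctsk, Mmp9, Alas2 and the defining genes without a row were named after their values were seen. A gene that this rule selects is not reported here.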

Additional observations from a re-analysis of the deposited data

Results flagged for a closer look

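In 2 of 86 groups of 4 libraries a value lay far from the other 3 (by Dixon's test at the 95% level), and chance alone gives about 1 in 20. Ptprc in Dp1Tyb replicate 4 was at 7.08 CPM, below 8.07 to 8.25 in the other Dp1Tyb libraries. Spi1 in WT replicate 3 was at 5.40 CPM, above 3.90 to 4.16 in the other WT libraries.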

How the results depend on the processing

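The median log2 fold change over members stayed below 0 under every setting, from -0.65 to -0.43 (relative) and -0.62 to -0.24 (spike-in) with a library left out, and no edgeR setting called a member. DESeq2 with relative scaling called 1, Ptprc, and 54 of all tested genes against 3 by edgeR. The count of members lower at an unadjusted p under 0.05 depended on single libraries. With relative scaling (21) it ranged from 9 without Dp1Tyb replicate 4 (2.94% of all tested genes) to 25 without Dp1Tyb replicate 1 (3.30%), and was also moved by WT replicates 1 and 3 (10 and 11 when left out, with 2.14% and 1.54% of all) and by Dp1Tyb replicates 2 and 3 (13 and 12, with 1.66% and 1.79%). With spike-in scaling (1) it ranged from 0 to 9, the latter without Dp1Tyb replicate 1 (0.939%), and was 2 without WT replicate 3 (0.431%). It was 0 (0.137% to 0.467%) without any other library but Dp1Tyb replicate 4. The 6 members whose groups did not overlap became 15 without WT replicate 4 (3.0% of all tested genes) and 16 without Dp1Tyb replicate 1 (3.70%). Without both libraries numbered 1, an alternative chosen after seeing the data, the counts at an unadjusted p under 0.05 were 22 (relative, 2.53%) and 0 (spike-in, 0.268%), 19 (5.68%) and 9 (0.71%) members did not overlap, and Fcgr2b turned to 0.054 and 0.16. Leaving out a library also turned Ly86 (-0.18 to 0.56 relative, -0.075 to 0.61 spike-in) and Fcgr2b (-0.22 to 0.027 and -0.30 to 0.10), and with spike-in scaling Cd53 (-0.81 to 0.0027), Pld4 (-0.34 to 0.23) and Ms4a6c (-0.44 to 0.094). Leaving out a library moved the estimates of 13 of 35 members by over 1.5 times with relative scaling (Mrc1 -0.97 to -0.27, Cx3cr1 -0.90 to -0.16) and of 32 of 35 with spike-in scaling. The cause was not tested. The summed share ranged from -0.78 to -0.50. Whether replicate numbers pair the libraries is unsettled, and the labels do not say so. The correlations of same-numbered deviations were 0.375, 0.605, -0.030 and 0.393. WT replicates 1, 2 and 4 were closest to the same-numbered Dp1Tyb library, and WT replicate 3 to Dp1Tyb replicate 4. Correlations of differently numbered libraries ran from -0.536 to 0.358. These values cannot settle the pairing, and the fit without a block was kept as the main one. With a replicate block, 26 (relative, 5.46% of all) and 7 (spike-in, 1.01%) members were lower at that p, 0 were called, and 7 and 9 of all tested genes were called against 3 and 2. Few counts limit Samsn1, Ncf4, Ly86 and Aif1.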
